A study of Oryza sativa with 16 samples.

Results

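The regions described here are pericentromeric OsHOX24 regions, the places close to the centromeres of 8 rice chromosomes where OsHOX24 was called bound by chromatin immunoprecipitation and sequencing (ChIP-seq). They were chosen by position, although the windows were set with earlier results of these data known. Every summit within 2.5 Mb of an approximate centromere position was taken, and summits up to 200 bp apart, in any library, were merged into a region. This gave 1316 summits in 637 regions, out of 16253 regions over the 12 nuclear chromosomes. The windows ran from 14.2 to 19.2 Mb on chromosome 1, 11.1 to 16.1 Mb on chromosome 2, 16.9 to 21.9 Mb on chromosome 3 and 9.9 to 14.9 Mb on chromosome 5. On chromosomes 6, 7, 8 and 9 they ran from 12.8 to 17.8 Mb, 9.6 to 14.6 Mb, 10.4 to 15.4 Mb and 0.3 to 5.3 Mb. Positions are on MSU version 7, the rice build the authors mapped to. The label rests on these positions only, because no sequence, repeat or gene annotation of that build was used.

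The ChIP libraries came from seedlings 3 weeks old, grown in hydroponics at 28 °C, in 4 groups of 2 libraries each. H49 desiccation and WT desiccation seedlings were dried for 3 h, and H49 control and WT control seedlings were kept in water. H49 is a transgenic line that over-expresses OsHOX24, and WT is wild-type rice; both carry the endogenous gene. The antibody is directed at OsHOX24 itself, so protein from the transgene and from the endogenous gene can both be pulled down. H49 is 1 line, the promoter of its transgene and any pooling of plants are not given in the sources used here, and inputs were not analysed here.

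OsHOX24 belongs to the homeodomain-leucine zipper proteins of subfamily I, plant transcription factors that bind short AT-rich palindromes as dimers and are known for roles in responses to drought and other water stress. Rice centromeres hold arrays of a satellite repeat and centromeric retrotransposons. The flanking pericentromeric DNA is rich in transposable elements and poor in genes, carries dense DNA methylation and is largely packed as heterochromatin. The centromere of chromosome 8 is a known exception in rice in that it contains transcribed genes.

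The shortest deposited list, that of WT desiccation replicate 2, had 2193 summits and the longest, that of WT control replicate 1, had 9348. Read depth is unknown. A summit is the point of highest enrichment in a peak. Its value, the authors' own from their peak caller, is taken as a −log10 p, although a −log10 q (an adjusted p) is not excluded by the sources used here. It is not comparable between lists, so it was turned into a percentile within its own list (0 for the weakest summit, 100 for the strongest). Each measure was computed once per library. Whether its difference from the rest was centred on 0 was tested by flipping signs in every possible way over the 8 libraries (an exact permutation test, two-sided), which cannot give a p below 0.00781. The labels do not say that replicates came from separate plants, so p-values measure the spread between these libraries only.

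Summits were sparser near centromeres than elsewhere on the same chromosomes in 7 of the 8 libraries. The windows made up 15.5% of the length of the 8 chromosomes and held 7.42% ± 4.21 (SD, n = 8) of their summits. The mean log2 ratio of density inside to density in the rest was −1.38 ± 0.84, a geometric mean of 0.384-fold, with an exact permutation p of 0.0156, adjusted to 0.0234 over the 3 comparisons with the rest. In the desiccation libraries of H49 the windows held 3.35 and 4.18 summits per Mb, against 7.30 and 6.72 in the rest. In those of WT they held 2.55 and 5.63 per Mb, against 9.05 and 5.38. The second WT desiccation library was the exception, with windows slightly denser than the rest (1.05-fold). In the control libraries of H49 the windows held 2.85 and 4.13 summits per Mb, against 14.8 and 10.98 in the rest, and in those of WT 6.18 and 4.05 per Mb, against 33.2 and 9.75. The number of summits inside the windows varied 2.42-fold between libraries, from 102 to 247, while the number in the rest varied 6.18-fold, from 1171 to 7240. When only the upper 50% of each list was used, the mean log2 ratio was −0.84 and the exact permutation p was 0.0625, above the threshold of 0.05, so it did not pass.

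**Figure D1:**
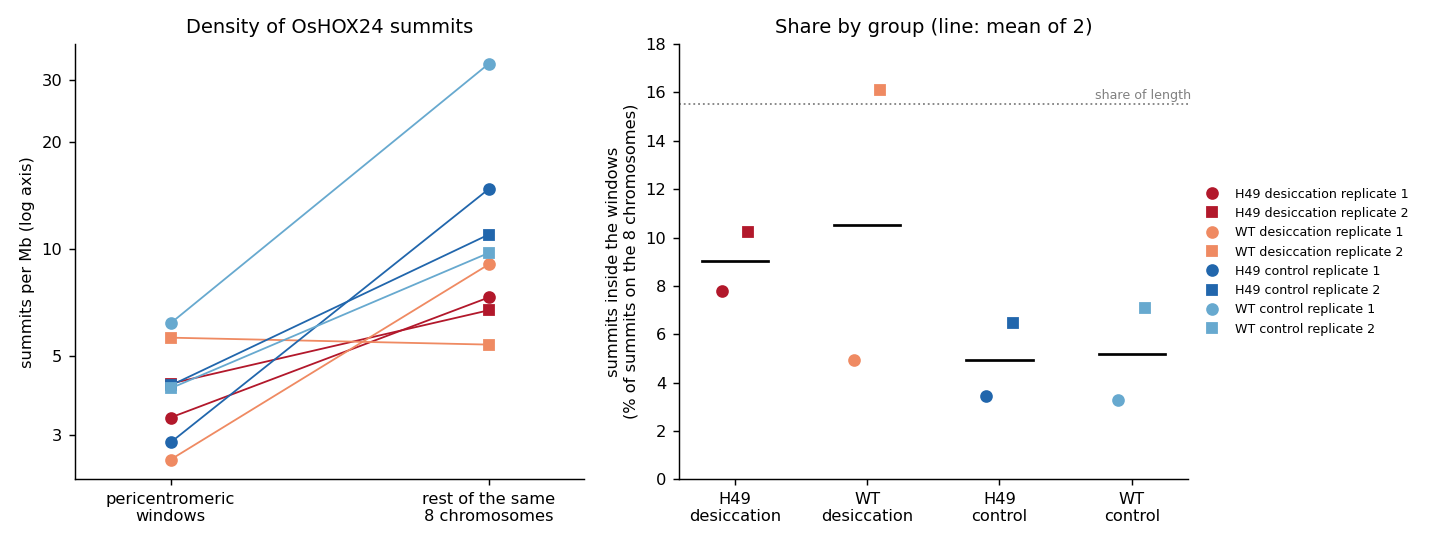
Summits per Mb (log axis) inside the pericentromeric windows and in the rest of the same 8 chromosomes, 1 line per library (left), and the percentage of a library's summits that lay inside the windows by group, with the mean of 2 libraries as a line and the windows' 15.5% of the length dotted (right). Lines rise from the windows to the rest in 7 libraries and fall in WT desiccation replicate 2, the only library above the dotted line.

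The sparse zone reached beyond the windows. Within 1 Mb of the centromere positions the density was 4.75 ± 2.36 summits per Mb (SD, n = 8), from 1 to 2.5 Mb it was 3.69 ± 1.23, from 2.5 to 5 Mb it was 4.26 ± 1.95, and beyond 5 Mb it was 13.8 ± 10.5. The innermost zone was denser than the next one in 4 of the 8 libraries, H49 desiccation replicates 1 and 2, WT desiccation replicate 2 and WT control replicate 2. In WT desiccation replicate 2 it held 9.19 summits per Mb, against 3.25 from 1 to 2.5 Mb and 5.58 beyond 5 Mb. In WT desiccation replicate 1 it held 2.06 per Mb, against 2.88 and 10.4. Of the 608 summits within 1 Mb, 163 lay in 1 bin of 100 kb, at 14.2 to 14.3 Mb on chromosome 2. Without that bin, left out after seeing the data, the innermost zone held 3.498 ± 1.501 summits per Mb, below the 3.69 of the next zone, and was denser than the next zone in 3 of the 8 libraries. Within 0.5 Mb the group means were 2.5 in H49 desiccation and 3.69 in WT desiccation, against 2.19 in H49 control and 3.25 in WT control. These differences between zones are given without a test.

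**Figure D2:**
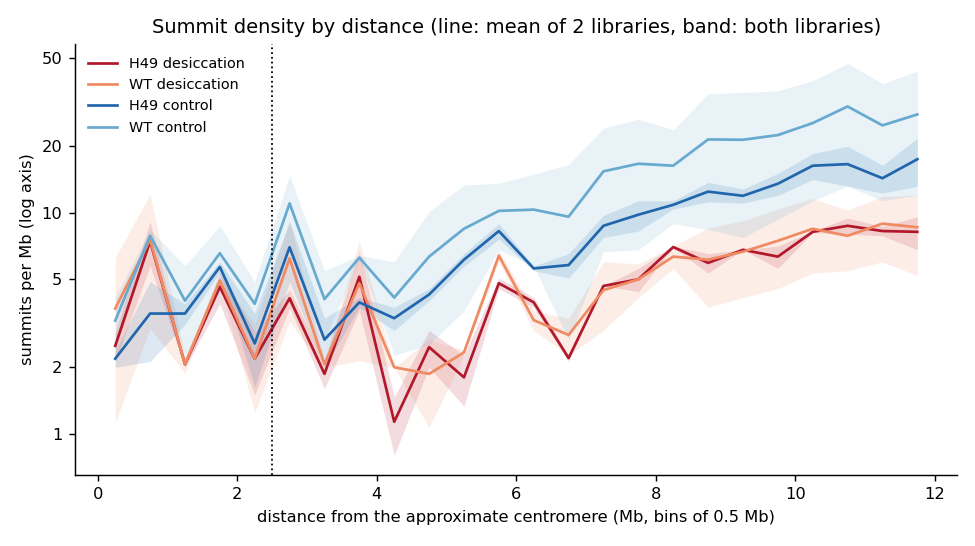
Summits per Mb (log axis) against distance from the approximate centromere in bins of 0.5 Mb, both arms and all 8 chromosomes together; lines are means of 2 libraries, bands span both libraries and the dotted line marks 2.5 Mb. From 0.5 to 1 Mb, the distance of the fullest bin, the means are 7.44 in H49 desiccation and 7.56 in WT desiccation, against 3.5 in H49 control and 7.875 in WT control. The desiccation means there are above every bin of those groups from 5 to 10 Mb and below every bin from 10 to 12 Mb. Both control groups are higher in every bin from 7 to 12 Mb than at that distance.

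By chromosome, the window was sparser than the rest of its chromosome on 7 of the 8 chromosomes tested, and chromosome 2 did not pass. On chromosome 3 the window held 3.00 ± 1.997 summits per Mb (SD, n = 8), against 17.8 ± 13.7 in the rest, a mean log2 ratio of −2.52 ± 0.38 that was negative in 8 of 8 libraries (exact permutation p = 0.00781, adjusted 0.0156 over 8 chromosomes). Chromosomes 1, 6 and 8 were also below in every library, at mean log2 ratios of −1.43, −1.58 and −1.76 and the same exact permutation p. Chromosome 9, whose window lies near the end of the chromosome, had the mildest passing ratio, −0.64 ± 0.56, below in 7 of 8 libraries (adjusted exact permutation p = 0.025). Chromosomes 5 and 7 passed with wide spreads, at −1.59 ± 1.54 and −2.29 ± 2.07 (both with adjusted exact permutation p = 0.0268). With any 1 of 6 libraries left out, in turn, 4 chromosomes passed after adjustment instead of 7; these were all libraries other than H49 desiccation replicate 2 and WT desiccation replicate 2. With 7 libraries the smallest p is 0.0156, and the ratios kept their size, at −1.91 to −1.28 on chromosome 5, −2.74 to −1.92 on chromosome 7 and −0.74 to −0.48 on chromosome 9.

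The chromosome 2 window held the most summits of the 8, 346 in 165 regions, and was filled unevenly by the libraries. It held 38 and 62 summits in the H49 desiccation libraries and 15 and 71 in the WT desiccation libraries, against 18 and 35 in the H49 control libraries and 59 and 48 in the WT control libraries. Its log2 ratio was highest in WT desiccation replicate 2, at 1.70, and lowest in H49 control replicate 1, at −2.31 (mean −0.49 ± 1.42, exact permutation p = 0.383). The chromosome 7 window went to the other extreme, with 1 summit in WT desiccation replicate 1 and 25 in WT desiccation replicate 2. Chromosome 2 passed (mean −1.38, exact permutation p = 0.00781) when dense bins were left out, which are 100 kb stretches with a mean share of 0.5% or more of the summits in a list. Within 1 Mb of the centromere position its ratio turned positive, at 0.34 (exact permutation p = 0.602).

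**Figure D3:**
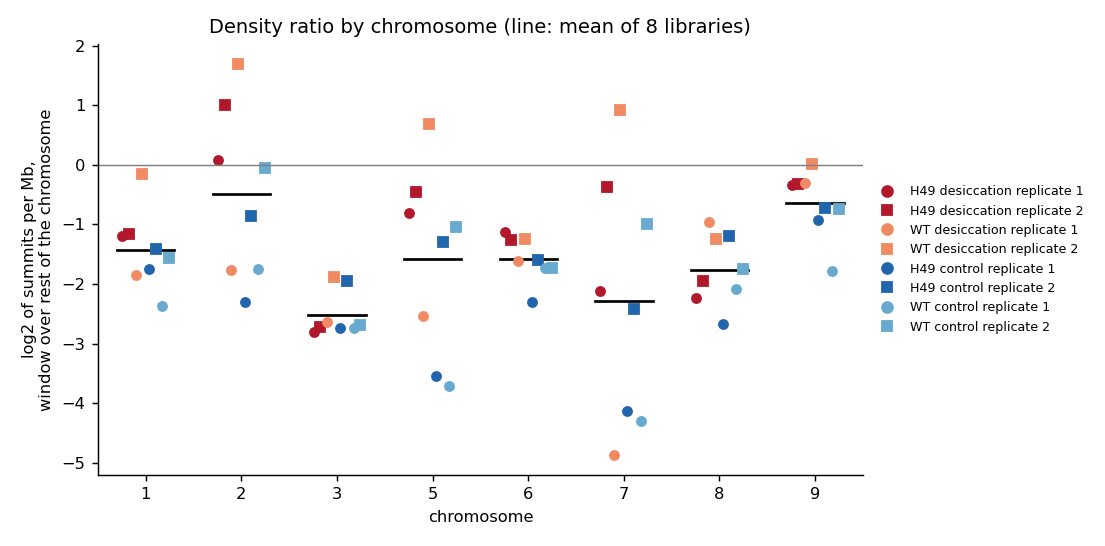
Log2 of summits per Mb in the window over the rest of the same chromosome, 1 point per library and a line at the mean of 8 libraries, for the 8 chromosomes with a window. Points on chromosomes 1, 3, 6 and 8 all lie below 0, and those on chromosomes 2, 5 and 7 spread over the widest ranges.

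Summits that did lie near centromeres ranked high in their own lists. The median percentile of −log10 p was 66.1 ± 6.52 (SD, n = 8) inside the windows and 45.7 ± 3.80 in the rest, a difference of 20.4 ± 7.37 points that was positive in 8 of 8 libraries (exact permutation p = 0.00781, adjusted 0.0234 over the 3 comparisons with the rest). The difference was smallest in WT control replicate 1, at 56.9 inside and 49.1 in the rest, and largest in H49 control replicate 1, at 75.4 inside and 47.6 in the rest. No library's inside median was as low as the highest median of the rest. By distance, the median percentile averaged 61.8 ± 5.93 within 1 Mb and 70.6 ± 8.87 from 1 to 2.5 Mb. It was 56.5 ± 5.25 from 2.5 to 5 Mb and 44.9 ± 4.93 beyond 5 Mb (SD, n = 8). The mean rank was thus not highest in the innermost zone, and higher ranks reached beyond the windows. These zones were not tested. In −log10 p itself, the medians of WT desiccation replicate 2 were 28.7 inside and 10.7 in the rest, and those of H49 control replicate 1 were 8.88 and 5.95.

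The rank difference was carried unevenly by the chromosomes. Chromosome 9 had the largest mean difference, 44.5 points, and a positive one in 8 of 8 libraries. Its window was not uniform. Of its 221 summits, 47 and 48 lay in the adjacent 100 kb bins at 4.6 to 4.7 and 4.7 to 4.8 Mb, at median percentiles of 94.0 and 94.8. The bin at 1.2 to 1.3 Mb held 25 summits, at a median percentile of 44.5. Chromosomes 1, 3, 5 and 6 were also positive in 8 of 8 libraries, at means from 16.1 to 21.6 points. Chromosomes 2 and 7 were positive in 6 of 8. On chromosome 8 the difference was positive in 2 of 8 libraries, with a mean of −3.85 points; chromosomes were not tested against each other. Without chromosome 9 the difference over the other windows was 15.7 points (exact permutation p = 0.00781).

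The pericentromeric share was lowest among weak summits and highest among strong ones. Of the summits in the weakest 25% of each list, 3.87% ± 1.28 (SD, n = 8) lay inside the windows. The next parts of 25% each, going up, held 5.32% ± 3.62 and 9.21% ± 9.17. The strongest part held 12.8% ± 6.01, from 4.36% in WT control replicate 1 to 20.9% in WT desiccation replicate 2. The strongest part exceeded the weakest in 8 of 8 libraries and had the highest share in 7 of 8, WT desiccation replicate 2 having its highest share, 30.7%, in the part just below. In the strongest part the density ratio was above 1 in 2 libraries, WT desiccation replicate 2 and H49 desiccation replicate 2. These shares follow from the same values as the rank difference and were not tested separately.

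**Figure D4:**
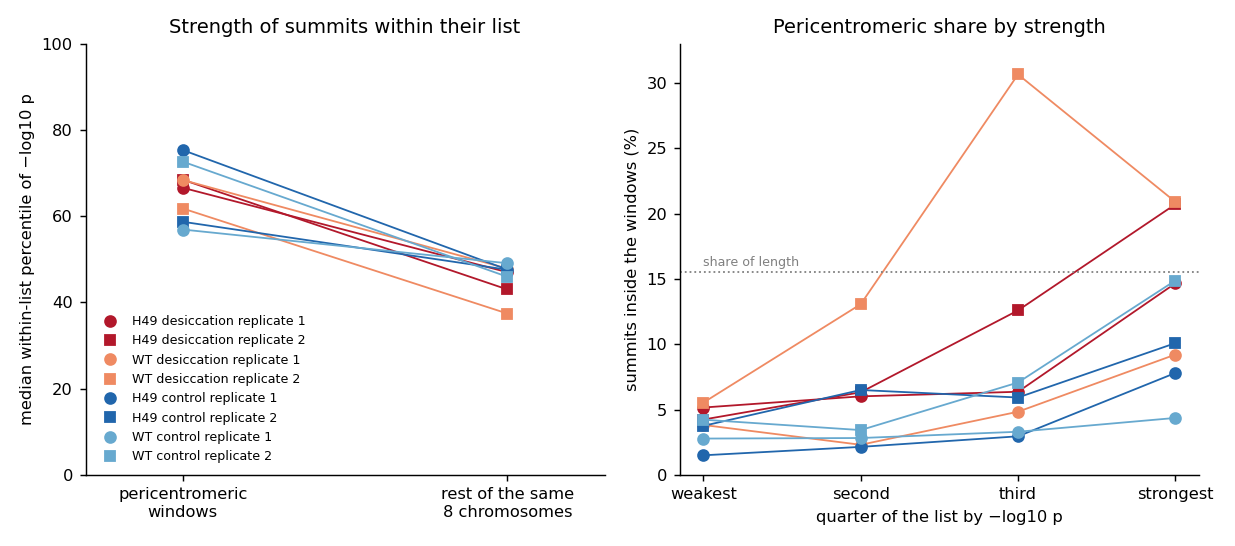
Median within-list percentile of −log10 p inside the windows and in the rest, 1 line per library (left), and the percentage of summits inside the windows for each successive 25% of a list, from weakest to strongest, with the windows' 15.5% of the length dotted (right). All 8 lines on the left fall from the windows to the rest, and on the right every library has a higher share in its strongest than in its weakest part.

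Pericentromeric regions were found again in other libraries about as often as regions elsewhere, with no constant direction. Of a library's pericentromeric regions, 73.4% ± 15.1 (SD, n = 8) were also called in at least 1 other library, against 71.5% ± 13.1 of its regions in the rest. The difference of 1.87 ± 9.41 percentage points was positive in 5 libraries and negative in 3, and did not pass (exact permutation p = 0.578, adjusted 0.578). Libraries score on each other in this measure, so the 8 differences are not independent. Every p-value given here for recurrence has this limit. In H49 desiccation the shares were 85.8% and 91.6% inside, against 79.9% and 80.9% in the rest, and in WT desiccation 67.3% and 64.0% inside, against 74.5% and 74.3%. In H49 control they were 81.6% and 66.7% inside, against 68.4% and 76.3%, and in WT control 45.9% and 84.0% inside, against 40.5% and 77.2%. H49 control replicate 2 and both WT desiccation libraries were the ones with lower recurrence inside. With equal numbers of the strongest summits from each list, 2172 per library, the difference was 8.96 points (exact permutation p = 0.0469), and in the upper 50% of each list it was 7.54 points (exact permutation p = 0.0391). Compared within parts of equal strength, a comparison chosen after seeing the data, it was −5.46 points (exact permutation p = 0.25).

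Counted over all libraries together, 255 of the 637 pericentromeric regions (40.0%) were called in at least 2 libraries, against 4090 of 11845 (34.5%) in the rest and a background of 35.4% of all 16253 regions. Calls in at least 5 libraries numbered 62 (9.73%), against 6.64% in the rest and 7.13% of all regions. The remaining 382 regions (60.0%) came from 1 library, 133 of them from WT control replicate 1 and 81 from WT desiccation replicate 2. In the rest 7755 regions (65.5%) came from 1 library, 4298 of them from WT control replicate 1. That list, the longest, thus weighs more on the percentages of the rest, so they do not by themselves show higher recurrence inside. The same denominators are used for all later percentages of the 637 regions and of the regions in the rest. In WT desiccation replicate 2, 36.0% of the pericentromeric regions were in no other library, against 25.7% of its regions in the rest. In H49 desiccation replicate 2 the share was 8.38%, against 19.1%. These counts and percentages have no test of their own.

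Some pairs of libraries had a higher similarity index near centromeres than elsewhere, without always sharing a larger part of their regions. Similarity is given as the Jaccard index, the number of shared regions over all regions called by either library. It averaged 0.235 ± 0.0858 (SD over 28 pairs) inside the windows and 0.179 ± 0.0506 in the rest, and was higher inside in 22 of 28 pairs; pairs share libraries, so this is a description. The index cannot exceed the smaller number of regions over the larger. Summit numbers varied 6.18-fold between libraries in the rest but 2.42-fold inside, so list sizes bear on every comparison of this index between the 2 places. Their part was not tested. The highest index inside was that of H49 desiccation replicate 2 with WT control replicate 2, libraries that differ in both genotype and treatment. They shared 104 regions, 62.3% and 64.2% of their pericentromeric regions, for an index of 0.462, against 0.236 in the rest. Replicates of H49 desiccation reached 0.344 and those of H49 control 0.298, and the replicates of WT desiccation 0.109 and of WT control 0.166. The mean over the 4 replicate pairs, 0.229, lay close to the mean over the 24 pairs from different groups, 0.236.

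Most of the regions that recurred in every library ranked high on average. Called in all 8 libraries were 21 regions (3.30%), against 170 in the rest (1.44%) and a background of 1.68% of all regions. Of the 21, 6 lay on chromosome 9, 4 each on chromosomes 1 and 6, 3 on chromosome 3, 2 on chromosome 8, 1 each on chromosomes 2 and 5 and none on chromosome 7. Their mean percentiles ran from 69.3 to 98.3 with a median of 91.5. In 18 of the 21 the lowest percentile in any list was above 50, and in the other 3 it was below, down to 23.1. Of the 21 regions, 6 lay within 1 Mb of the centromere position and none in a dense bin.

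The region with the highest mean percentile was Chr1:18689259-18689482, 1.99 Mb from the centromere position. Its −log10 p was 49.4 and 109 in H49 desiccation and 21.03 and 133 in WT desiccation, against 51.7 and 101 in H49 control and 62.3 and 162 in WT control. It stood at the 96.1st percentile or above in all 8 lists, and its values in the treatments and genotypes overlapped. A second region of this cluster, Chr1:18686347-18686668, had a mean percentile of 97.3. They belong to a bin of 100 kb that held 8, 6, 4, 8, 7, 5, 6 and 5 summits in the 8 libraries (in the order H49 desiccation, WT desiccation, H49 control and WT control, replicate 1 before 2), with 6 regions called in at least 5 libraries.

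Other regions called in all 8 libraries lay on chromosomes 3, 6, 8 and 9. Chr3:17812862-17813116 lay 1.59 Mb from the centromere position on its lower side. It reached −log10 p of 100 and 92.7 in H49 desiccation and 30.1 and 108 in WT desiccation, against 48.5 and 97.2 in H49 control and 60.3 and 117 in WT control. Chr8:12797844-12798118 was the member closest to a centromere position among those called in all 8 libraries and named here, 0.10 Mb away, at a mean percentile of 97.6 ± 2.16 (SD, n = 8). Its −log10 p was 54.7 and 93.3 in H49 desiccation and 25.5 and 83.7 in WT desiccation, against 58.4 and 106 in H49 control and 85.2 and 137 in WT control. The chromosome with the negative mean rank difference thus held 1 of the strongest regions. Chr6:13713847-13714080 followed at 95.6 ± 3.41.

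On chromosome 9, 3 of the regions called in all 8 libraries were named by the rule. Chr9:1531827-1532044 (mean percentile 97.4 ± 1.75) and Chr9:1530634-1531090 (95.5 ± 4.62) lie side by side. Chr9:3615423-3615678, 0.82 Mb from the centromere position, had −log10 p of 55.4 and 31.4 in H49 desiccation and 27.2 and 56.6 in WT desiccation, against 68.6 and 249 in H49 control and 120 and 109 in WT control. All 4 control values of this region were above all 4 desiccation values, but the lists differ in scale and the percentiles were 87.2 or higher in every list. The regions called in most libraries on the remaining chromosomes were Chr2:12625481-12625917 (8 libraries, mean percentile 88.4), Chr5:11896261-11896529 (8 libraries, 85.0) and Chr7:12441441-12441689 (7 libraries, 91.4). The chromosome 7 region was missing from WT desiccation replicate 1, the library with 1 summit in that window.

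Summits inside the windows were concentrated in few places. Of the 400 bins of 100 kb in the windows, 195 (48.8%) held any summit in any library, against 77.7% of 2177 bins in the rest. The 10 fullest bins in the windows held 493 of the 1316 summits (37.5%). Fewer filled bins also go with the lower density inside, and no share of the fullest bins is given for the rest. Whether summits were more concentrated inside than in the rest was not tested. The bins singled out here were chosen after their values were seen. The fullest was 14.2 to 14.3 Mb on chromosome 2, with 163 summits in 66 regions, the only dense bin in the windows. It held 24 and 44 summits in H49 desiccation and 0 and 54 in WT desiccation, against 0 and 6 in H49 control and 1 and 34 in WT control. The next, 12.9 to 13 Mb on chromosome 5, held 6 and 12 in H49 desiccation and 0 and 22 in WT desiccation, against 0 and 2 in H49 control and 0 and 10 in WT control. A bin at 14.2 to 14.3 Mb on chromosome 7 held 1 and 8 in H49 desiccation and 0 and 5 in WT desiccation, against 0 and 0 in H49 control and 0 and 7 in WT control.

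These 3 bins were filled and empty in much the same libraries, and replicate 2 had more summits in them than replicate 1 in 4 of 4 groups. Together they held 236 of the 1316 summits (17.9%). They made up 23.1% and 38.3% of the pericentromeric summits in H49 desiccation and 0% and 36.0% in WT desiccation, against 0% and 4.85% in H49 control and 0.405% and 31.5% in WT control. The 4 dense bins on the same chromosomes outside the windows also took a larger share in replicate 2 in 4 of 4 groups, holding 5.03% and 8.75% of the summits of the rest in H49 desiccation and 1.62% and 11.8% in WT desiccation, against 1.31% and 2.47% in H49 control and 0.649% and 5.42% in WT control. What the replicate numbers stand for is not given in the labels, and their part in the result was not tested. The bin at 12.8 to 12.9 Mb on chromosome 5 was also uneven, with 6 and 6 summits in H49 desiccation and 0 and 5 in WT desiccation, against 0 and 0 in H49 control and 0 and 1 in WT control. Among the other full bins, 4.7 to 4.8 Mb on chromosome 9 held 5 to 9 summits in every library and 1.5 to 1.6 Mb on that chromosome 2 or 3, while 13 to 13.1 Mb on chromosome 2 and 1.2 to 1.3 Mb on chromosome 9 each held 1 to 8, and 16.1 to 16.2 Mb on chromosome 1 held 0 to 7.

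**Figure D5:**
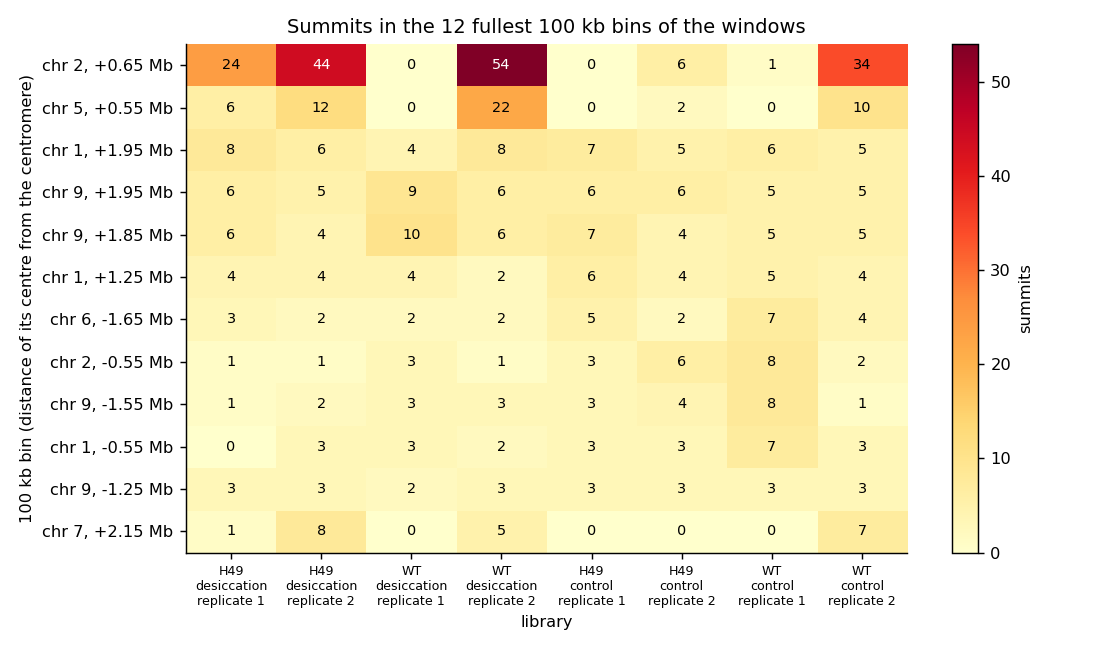
Number of summits per library in the 12 bins of 100 kb with the most summits inside the windows, named by chromosome and by the distance of the bin's centre from the centromere position. The chromosome 2 and chromosome 5 bins at the top and the chromosome 7 bin at the bottom range from 0 to 54, 22 and 8 summits, while the bins in between hold 0 to 10 per library.

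The response to desiccation was addressed by the percentage of a library's summits, on the 8 chromosomes, that lay inside the windows. This share was 9.76% ± 4.76 in the desiccation libraries and 5.07% ± 1.99 in the control libraries (SD, n = 4 each), a difference of 4.70 percentage points that did not pass (exact two-sided permutation p = 0.114, smallest possible 0.0286, adjusted 0.686 over 6 tests by treatment and genotype). Single libraries had 7.77% and 10.2% in H49 desiccation and 4.92% and 16.1% in WT desiccation, against 3.43% and 6.46% in H49 control and 3.30% and 7.09% in WT control. The treatments thus overlapped through WT desiccation replicate 1, although among libraries with the same replicate number both desiccation shares were above both control shares. The difference was 4.07 points within H49 and 5.32 points within WT, and these were not tested separately. Without WT desiccation replicate 2 it was 2.58 points (exact permutation p = 0.2), without WT desiccation replicate 1 it was 6.31 points (exact permutation p = 0.0286, unadjusted), without the 3 variable bins it was 2.67 points (exact permutation p = 0.143), and in the upper 50% of each list it was 7.88 points (exact permutation p = 0.143). With equal numbers of the strongest summits, 2172 per library, it was 3.47 points (exact permutation p = 0.286). Every control list was longer than every desiccation list, at 3176 to 9348 summits against 2193 to 2691. Treatment and list length thus went together, and the part of list length was not tested.

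The absolute density inside the windows overlapped between the treatments, while in the rest all 4 control libraries lay above all 4 desiccation libraries. Inside, H49 desiccation averaged 3.76 ± 0.583 summits per Mb and WT desiccation 4.09 ± 2.17, against 3.49 ± 0.902 in H49 control and 5.11 ± 1.503 in WT control (SD, n = 2 each). In the rest the averages were 7.01 ± 0.412 in H49 desiccation and 7.21 ± 2.59 in WT desiccation, against 12.87 ± 2.67 in H49 control and 21.5 ± 16.6 in WT control. Desiccation libraries accordingly supplied 47.7% of the 1316 pericentromeric summits, against 29.3% of the 21159 summits in the rest, and 36.9% against 25.1% without WT desiccation replicate 2. The rank difference was 22.5 ± 2.86 points in desiccation and 18.3 ± 10.3 in control (exact permutation p = 0.457), and the recurrence difference −0.18 ± 10.1 and 3.92 ± 9.63 percentage points (exact permutation p = 0.6, n = 4 each), both adjusted to 0.857.

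Genotype gave no difference beyond the spread between libraries. The share of summits inside the windows was 6.98% ± 2.84 in H49 and 7.86% ± 5.72 in WT (SD, n = 4 each), a difference of −0.88 percentage points (exact permutation p = 0.857, adjusted 0.857). Without WT desiccation replicate 2 it turned to 1.87 points, and without H49 control replicate 1 to 0.30. H49 libraries supplied 44.1% of the pericentromeric summits, against 40.9% in the rest, and without WT control replicate 1, the longest list, 54.3% against 62.2%. The rank difference was 20.98 ± 7.41 points in H49 and 19.9 ± 8.42 in WT (exact permutation p = 0.771), and the recurrence difference 5.06 ± 10.2 and −1.33 ± 8.64 percentage points (exact permutation p = 0.314, n = 4 each), both adjusted to 0.857. These p-values do not show that the genotypes were alike.

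Confident regions, those that both libraries of a group shared, were counted group by group, without a test. Inside the windows there were 77 in H49 desiccation, 12.1% of the 637 regions, against 4.94% of regions in the rest and a background of 5.8% of all regions. WT desiccation had 32 (5.02%, against 3.12% and a background of 3.27%), H49 control 64 (10.05%, against 8.70% and 8.78%) and WT control 58 (9.11%, against 8.90% and 9.11%). The control shares were close to their background, and the H49 desiccation share was the farthest above it. Each percentage is of regions called in any of the 8 libraries, so it depends on the lists of other groups too. Within a group's own calls, the Jaccard index of the replicates was 0.344 inside and 0.238 in the rest in H49 desiccation. It was 0.109 and 0.134 in WT desiccation, 0.298 and 0.226 in H49 control, and 0.166 and 0.127 in WT control. The H49 desiccation libraries are also the only group in which both replicates had more than 1 summit in the chromosome 2 bin, 24 and 44.

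Regions seen on 1 side only (one-sided regions) were those with calls in 3 or more of the 4 libraries of a treatment or genotype and 0 calls on the other side. Desiccation-only regions numbered 9 inside the windows (1.41%), against 37 in the rest (0.312%) and a background of 0.418% of all regions. All 9 were called in both H49 desiccation libraries and WT desiccation replicate 2, and none in WT desiccation replicate 1. Of the 9, 5 lay in the chromosome 2 bin and 1 in the chromosome 5 bin. The highest mean percentiles were those of Chr5:12983833-12984049 (70.1), Chr3:19954596-19954931 (67.6), Chr2:14285245-14285455 (64.7), Chr7:12661747-12661973 (57.6) and Chr2:14250983-14251255 (56.7). The chromosome 3 region had −log10 p of 9.60 and 10.8 in H49 desiccation and 28.3 in WT desiccation replicate 2. With summits merged up to 500 bp apart, 5 of the 9 were also called in a control library and no longer met the rule, while the chromosome 3 and chromosome 7 regions named here still did.

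Control-only regions numbered 7 inside the windows (1.10%), against 352 in the rest (2.97%) and a background of 2.66%. All 7 were called in WT control replicate 1, the longest list, 5 in H49 control replicate 1, 4 in H49 control replicate 2 and 5 in WT control replicate 2. That longest list had 247 summits inside and 7240 in the rest, so it weighs more on the percentage of the rest. Percentages of control-only and desiccation-only regions depend on how each list divides between the windows and the rest, and were not tested. The first by mean percentile was Chr5:14639407-14639711 (79.6 ± 0.721, SD over 3 libraries), with −log10 p of 16.3 in H49 control replicate 2 and 11.99 and 13.8 in WT control. It was followed by Chr3:17438822-17439116 (69.7), Chr1:16433085-16433387 (69.5), Chr2:13200364-13200704 (57.3) and Chr6:13607410-13607693 (50.6). None of the 7 lay in the 3 variable bins, and all 7 met the rule with summits merged up to 500 bp apart.

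For genotype, 3 regions were H49-only (0.471%, against 0.236% in the rest and a background of 0.246%) and 0 were WT-only (against 29 in the rest, 0.245%, and a background of 0.234%). All 3 were called in H49 desiccation replicate 1 and both H49 control libraries and were missing from H49 desiccation replicate 2. Chr2:15453164-15453462 had −log10 p of 21.03 in H49 desiccation replicate 1 and 12.88 and 56.7 in H49 control, at a mean percentile of 88.0. It was the only 1 of the 3 that met the rule with summits merged up to 500 bp apart. Chr9:1529958-1530173 (mean percentile 86.5) adjoins Chr9:1529733-1529956, called in 4 libraries, and the wider merge joined it to calls from 7 libraries. Chr8:11489078-11489414 (38.9) was joined to calls from 5 libraries. Counts this small are a description and were not tested.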

How the data were processed

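The data were ChIP-seq summit lists of 8 libraries, 2 per group; the 8 inputs were not analysed here. Per the series' design text, NGS QC Toolkit was used for read filtering, Bowtie2 for mapping on MSU version 7 and MACS2 for calling peaks. The submitters' processing notes give MACS2 as 2.1.1.20160309. The sources used here do not say whether inputs, or the Bedops step of the design text, shaped the lists. Each library has a list of its own. The value the authors deposited per summit is taken as a −log10 p-value, from the MACS2 summit format, from lowest values close to 3 and from a tag in the peak names that reads as a cutoff of 0.001. A −log10 q-value cannot be told apart from it here; tests that use the value use only its rank within a list. Such values rise with read number, which is unknown, so no counting interval is given, and a missing summit means not called.

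Of 29740 summits, 29684 on the 12 nuclear chromosomes were used, at positions counted from 1. Percentiles were computed over a library's nuclear summits. Chromosome lengths were the highest summit positions. Regions extend 100 bp beyond their outermost summits and never cross a window edge. Benjamini-Hochberg adjustment was made within 3 families of tests, of 3 comparisons with the rest, 8 chromosomes and 6 measures by condition. Shares by treatment and genotype were tested over the 70 assignments of 4 libraries against 4. The call threshold was 0.05. Named regions are, by mean percentile, 8 of those called in all 8 libraries, up to 5 of each one-sided set, and the most recurrent on each chromosome. Measures were tested on simulated lists. The windows and lists of measures were chosen with earlier results of these data known. Python 3.11.15, numpy 2.4.6, pandas 2.3.3 and matplotlib 3.10.9 were used. Other window widths, list parts, merging distances, chromosomes, bins and left-out libraries were tried.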

Additional observations from a re-analysis of the deposited data

Results flagged for a closer look

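Of 60 sets of 4 or 8 libraries examined, 4 had a library far from the others by Dixon's test at its 95% critical value, about what chance gives at 1 in 20. The log2 density ratio of the chromosome 3 window over its chromosome was −1.95 in H49 control replicate 2, higher than in the other control libraries and than in the other H49 libraries. On the same chromosome it was −1.89 in WT desiccation replicate 2, higher than in the other WT libraries. On chromosome 9 it was 0.0203 in WT desiccation replicate 2, higher than in the other desiccation libraries.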

How the results depend on the processing

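The rank difference stayed positive with p at its smallest possible value in the 6 other settings, at 13.9 to 23.2 points, and at 19.4 to 22.2 points with single libraries left out. The density ratio stayed negative, at −1.66 to −0.84 on the log2 scale over 9 settings and −1.59 to −1.23 with single libraries left out; −0.84, for the upper 50% of each list, did not pass. The recurrence difference, in which libraries score on each other, was the least stable. It passed at 7.54 in the upper 50% of each list and at 8.96 with equal numbers of summits, and turned negative without chromosome 9 (−0.67), with merging up to 500 bp (−3.60), within parts of equal strength (−5.46) and without H49 desiccation replicate 2 (−0.92); it ran from −0.92 to 6.83 with single libraries left out. With single libraries left out, the share difference by treatment ran from 2.58 to 6.31 percentage points, that by genotype from −2.40 to 1.87, and the number of passing chromosomes from 4 to 7. Chromosome 2 turned to 0.34 within 1 Mb and passed within 5 Mb (−1.10) and without dense bins (−1.38). Chromosome 5 within 1 Mb (−1.24) and chromosomes 8 (−0.93) and 9 (−0.61) within 5 Mb did not pass. One-sided regions numbered 12 with merging up to 500 bp and 11 in the upper 50% of each list, against 19. The alternatives by chromosome, for one-sided regions, for the 3 variable bins, for the zone within 1 Mb and within parts of equal strength were chosen after seeing the data. Same-numbered replicates deviated together weakly, with correlations of 0.0518 to 0.285 over 5748 regions, under 0.1 in some pairs of groups, so the numbers were not taken as pairs. These correlations cover regions of all 12 nuclear chromosomes and do not measure the share inside the windows, so they do not settle whether replicate number matters for it. With the replicate number as a block the share difference by treatment was 4.70 with an exact permutation p of 0.0556, the smallest the block allows, and that by genotype −0.88 with p of 0.778; replicate 2 had the higher share in 4 of 4 groups. The causes of these changes were not tested. Read depth, which bears on how many weak summits a list holds, is unknown. A planned search for motifs and annotation was not run, since no genome of this build was used.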
